A study of Mus musculus with 9 samples.

Results

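The genes described here encode the proteasome, the protease complex that degrades proteins tagged with ubiquitin. They were chosen by name, as the symbols beginning Psma, Psmb, Psmc or Psmd followed by a number, together with Psme1 to Psme4. The rule found 43 of the 23420 gene symbols in the deposited table, and 41 of them passed the filter on low values, which asked for a level of at least 1 TPM in at least 3 libraries. TPM is a read count divided by gene length and scaled to the same total in each library, so levels of different genes can be set side by side.

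The samples were neural stem cells cultured from the hippocampus of wild-type C57BL/6J mice that were 2 days old. All 9 samples were in a drop-out medium that lacked bFGF and EGF, the growth factors that keep such cells dividing. They received 3 µM NAT, a small molecule known here only by that name, 3 µM P7C3-A20, an aminopropyl carbazole, or the vehicle DMSO, with 3 RNA sequencing libraries in each group. The labels call the 3 libraries biological replicates without saying whether they came from separate cultures or animals, so the p-values reflect the spread among libraries, which may be technical.

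The proteasome is a barrel of stacked rings, with alpha subunits that gate the entrance and beta subunits that line the chamber and hold the active sites. A regulatory particle can cap the barrel: its base of ATPases unfolds substrates and its lid removes the ubiquitin chains. In immune cells, and in other cells exposed to interferon, the active beta subunits can be exchanged for immunoproteasome subunits, and the barrel can also be capped by activators that work without ATP. In neural stem cells, protein degradation by this complex is known to remove cell cycle regulators and transcription factors as cells leave division.

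In DMSO, the proteasome genes were expressed well above the typical gene. Over the 9 libraries the median of the 41 tested members was 193 TPM, against 26.4 TPM for all 13839 genes tested, and 39 members lay above that all-gene median. A mean of at least 100 TPM was reached by 32 members. The members summed to 7931, 7900 and 7759 TPM in the 3 DMSO libraries, to 7813, 7702 and 7752 TPM with NAT and to 7732, 7837 and 7883 TPM with P7C3-A20. This was 0.786%, 0.776% and 0.782% of all TPM in the mean of each group, and the 3 groups overlapped. In RNA from whole cultures, fewer cells of a type and less RNA per cell cannot be told apart.

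**Figure D1:**
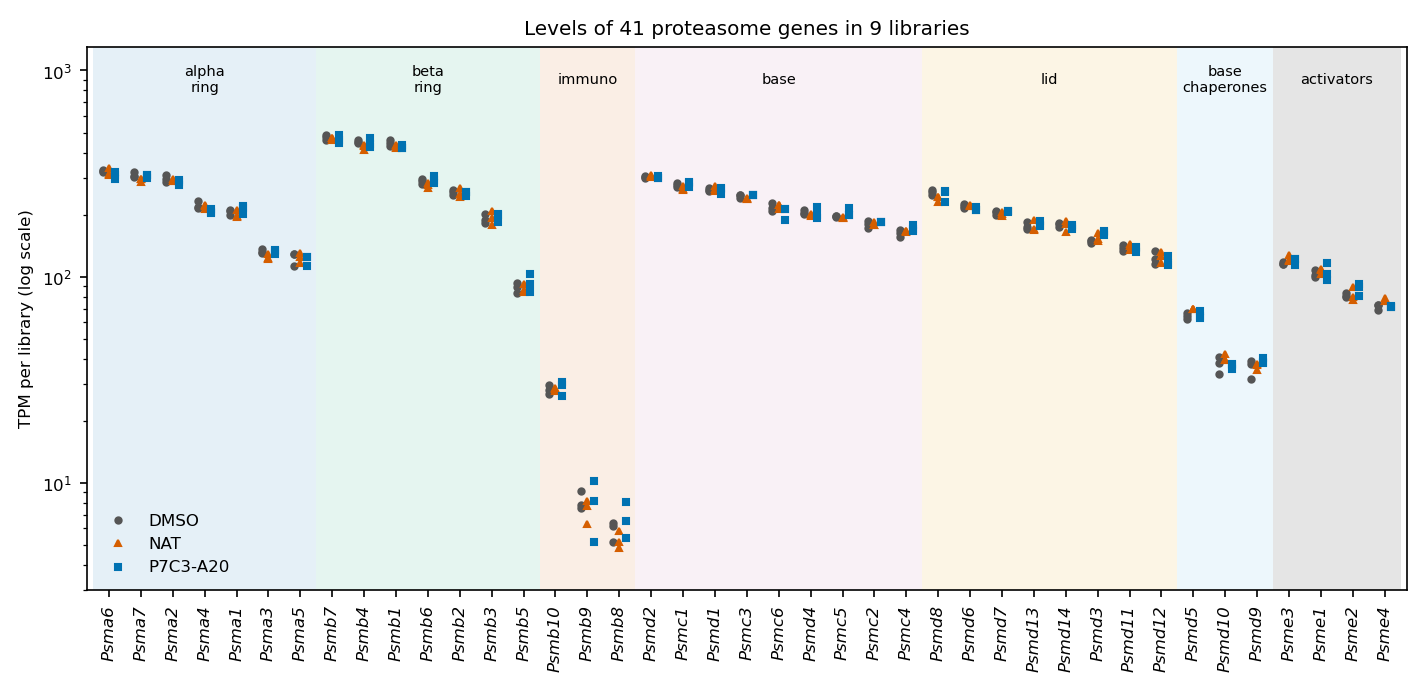
TPM in each library (log scale) of the 41 tested proteasome genes, grouped by their place in the complex and sorted by level. Each point is 1 library, with DMSO as circles, NAT as triangles and P7C3-A20 as squares. Psmb10, Psmb9 and Psmb8 are the lowest 3 genes, and the 3 groups lie close together for most genes.

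The alpha ring genes, Psma1 to Psma7, had a median of 222 TPM in DMSO. Psma6 was the highest at 325 ± 4.12 TPM (SD, n = 3) and Psma5 the lowest at 124 ± 9.39 TPM, a ratio of 2.63 between subunits that the complex holds in equal number. Among the beta ring genes, Psmb1 to Psmb7, the median was 289 TPM and the spread was wider. Psmb7 reached 473 ± 12.8 TPM and Psmb5 88.6 ± 4.91 TPM, a ratio of 5.33, although both encode catalytic subunits of the same ring.

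Psmb5, Psmb6 and Psmb7 encode the catalytic subunits beta5, beta1 and beta2, which cut after hydrophobic, acidic and basic residues. Psmb5 stood at 83.6, 93.4 and 88.9 TPM in the DMSO libraries, Psmb6 at 296, 281 and 289 TPM, and Psmb7 at 475, 484 and 459 TPM. The 3 genes kept this order in each of the 9 libraries, with no overlap between their ranges. The catalytic gene of lowest level was thus the one for the chymotrypsin-like site.

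Their immunoproteasome counterparts were far lower. Psmb8, which encodes beta5i, stood at 6.38, 5.16 and 6.18 TPM in DMSO, at 5.81, 4.83 and 5.18 TPM with NAT and at 6.54, 8.03 and 5.39 TPM with P7C3-A20. Psmb9, which encodes beta1i, stood at 7.53, 7.83 and 9.13 TPM in DMSO, at 7.75, 6.32 and 8.12 TPM with NAT and at 5.17, 10.2 and 8.18 TPM with P7C3-A20. The ranges of both genes overlapped between all 3 groups, and they overlapped with each other. Psmb10, which encodes beta2i, was the highest of the 3 with 28.3, 29.8 and 26.9 TPM in DMSO, 28.7, 27.9 and 28.4 TPM with NAT and 29.7, 26.4 and 30.7 TPM with P7C3-A20. Few reads lay behind the 2 lower genes, 27 to 61 per library for Psmb8 and 24 to 51 for Psmb9, against 162 to 225 for Psmb10.

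Set against the subunit it replaces, Psmb8 made up 6.28% ± 0.947 of the beta5 pair in DMSO, 5.68% ± 0.652 with NAT and 6.74% ± 1.57 with P7C3-A20 (SD, n = 3). Psmb9 made up 2.75% ± 0.292 of the beta1 pair in DMSO, 2.60% ± 0.323 with NAT and 2.58% ± 0.776 with P7C3-A20. For Psmb10 and the beta2 pair these shares were 5.66% ± 0.129, 5.72% ± 0.138 and 5.88% ± 0.430. All 3 immunoproteasome genes together held 4.71%, 4.75% and 4.81% of the TPM of the 6 catalytic genes in the DMSO libraries. With NAT this share was 4.93%, 4.47% and 4.70%, and with P7C3-A20 it was 4.85%, 4.999% and 4.72%. The groups overlapped, with means of 4.75%, 4.70% and 4.86%.

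**Figure D2:**
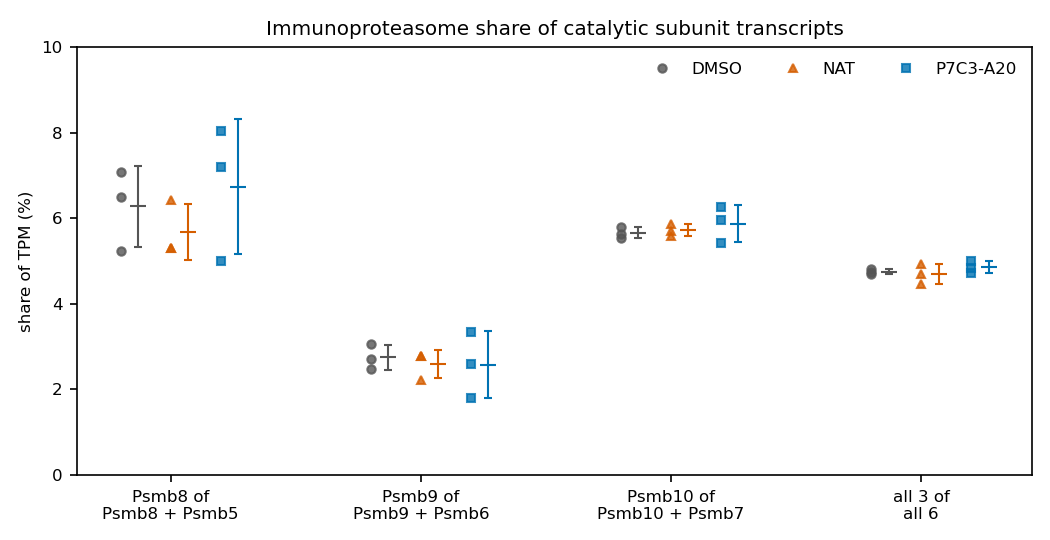
Share of TPM (%) that the immunoproteasome gene held in each catalytic pair, and that Psmb8, Psmb9 and Psmb10 held among all 6 catalytic genes. Points are libraries and bars are the mean ± SD of 3 libraries. The beta1 pair has the lowest share, 2.58% to 2.75% in the group means, and the 3 groups overlap in every column.

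Promoter stretches of catalytic genes were sought because known regulators of the complex act through short sequences there. Those of Psmb5, Psmb6 and Psmb8 are shown, the catalytic genes in which a match to either sequence marked below was found. Nfe2l1 encodes a transcription factor known to raise proteasome genes through antioxidant response elements when proteasome activity falls, and interferon gamma acts through gamma-activated sites. Sequences came from RefSeq (GRCm38.p6), and the 250 bases before the start were searched on both strands. The capitals mark TGACNNNGC in Psmb5 and Psmb6 and TTCNNNGAA in Psmb8.
Psmb5, chr14:54618009-54618067, minus strand: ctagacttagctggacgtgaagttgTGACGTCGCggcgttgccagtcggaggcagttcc
Psmb6, chr11:70525323-70525356, plus strand: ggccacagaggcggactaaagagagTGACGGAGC
Psmb8, chr17:34198073-34198131, plus strand: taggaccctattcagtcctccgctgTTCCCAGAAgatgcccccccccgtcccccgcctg

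The match in Psmb5 lay 47 to 39 bases before the start, that in Psmb6 lay 9 to 1 bases before it and that in Psmb8 lay 97 to 89 bases before it. A promoter was found for 36 of the 43 members, in 39 windows. TGACNNNGC was present in 5 of these 39 windows (12.8%), against 10.2% of all 32851 promoters. Besides Psmb5 and Psmb6 it lay in Psmd9, Psmd12 and Psmc6, which are not catalytic genes. TTCNNNGAA was present in 1 window (2.56%, against 7.02%), and the interferon-stimulated response element, searched as GAAA, any 2 bases and GAAA, in 3 windows (7.69%, against 2.98%), those of Psmd4, Psmd9 and Psmb3. The immunoproteasome genes Psmb9 and Psmb10 were searched too and held neither of them. The sequence CCAAT was present in 14 windows (35.9%, against 33.85%). It lay in 5 of 7 alpha ring genes, 1 of 4 beta ring genes and 1 of 3 immunoproteasome genes. Others were 3 of 8 base, 1 of 6 lid, 1 of 3 base chaperone and 1 of 4 activator genes, and Psmb11. In these windows 0 pairs of matches to different motifs overlapped, and a match is a description of the sequence only.

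The germ line and thymus forms were at or near 0. Psma8, which encodes the alpha subunit of male germ cells, was listed at 0 in all 9 libraries, and a count of 0 allows up to 3 reads, or 0.174 to 0.249 reads in every 1000000. Psmb11, the catalytic subunit of thymic epithelium, ranged from 0 to 0.308 TPM, which was 0 to 6 reads. Neither was tested. These limits cover counting error only.

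In the base, the ATPase genes Psmc1 to Psmc6 and the scaffold and receptor genes Psmd1, Psmd2 and Psmd4 had a median of 217 TPM in DMSO. They spanned a ratio of 1.87, from the scaffold gene Psmd2 at 304 ± 2.88 TPM to the ATPase gene Psmc4 at 162 ± 6.24 TPM (SD, n = 3). The 8 lid genes had a median of 177 TPM and a ratio of 2.08, from Psmd8 at 257 ± 7.79 TPM to Psmd12 at 123 ± 9.20 TPM. Psmd14, which encodes the deubiquitinase of the lid, stood at 178 ± 4.29 TPM. By this ratio the base was the more even of the 2, and the medians of both lay between those of the alpha ring and the activators.

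Psmd5, Psmd9 and Psmd10 encode chaperones that help the base to assemble and are not part of the finished complex. Their median was 37.5 TPM, below that of every other group of tested genes except the immunoproteasome, with Psmd5 highest at 64.4 ± 2.34 TPM and Psmd9 lowest at 36.2 ± 3.97 TPM. The 4 activator genes had a median of 92.0 TPM. Psme3, whose product is a nuclear activator, was the highest at 116 ± 1.69 TPM, and Psme4, whose product is the large activator PA200, was the lowest at 71.5 ± 2.06 TPM. Psme1 and Psme2, which encode the interferon-inducible activator that works with the immunoproteasome, stood at 103 ± 4.04 and 81.3 ± 1.90 TPM, above all 3 immunoproteasome genes in every library.

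The first comparison asked what NAT did against the vehicle. No member was called by limma at an adjusted p below 0.05, where 0.0289% of all genes tested were called. Voom on recovered reads called 0 members too, where it called 0.204% of all genes. At an unadjusted p below 0.05 there were 5 members, or 12.2% of the 41 against 11.7% of all genes. Of these, 2 were higher with NAT, where 8.67% of all genes were, and 3 were lower, where 3.00% were. The NAT and DMSO libraries did not overlap for 9 members, or 22.0% against 19.0%. They were higher with NAT for 3 of the 41 members (14.1% of all genes) and lower for 6 of the 41 (4.89% of all genes). The shares without regard to direction were near the background. By both counts more members were lower than higher, and more of all genes were higher than lower. The member counts are small and share their libraries, so no direction was read from them. The median member difference was -0.0046 on the log2 scale, against 0.03 for all genes, and 18 members (43.9%) were positive and 23 negative, where 63.5% of all genes were positive. The number of positive members was 6 with median-of-ratios size factors, 7 with quantile normalization and 8 with voom or with the GC trend removed, settings that moved the all-gene median to between 0.001 and 0.003.

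The 95% intervals were narrow for nearly all members. They lay within 1.2-fold of no difference for 39 of 41 members, against 61.2% of all genes, and Psmb8 and Psmb9 were the exceptions. The median within-group SD of log2(TPM + 1) was 0.05 over the tested members and 0.08 over all genes tested. The members also had a higher median level over the 9 libraries, 193 against 26.4 TPM. The part of level in the narrow intervals was not tested in any comparison.

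Psme4 and Psmd5 had the lowest p-values among the members higher with NAT. Psme4 stood at 76.5, 75.9 and 78.5 TPM with NAT and at 72.7, 69.1 and 72.8 TPM in DMSO. All NAT libraries lay above all DMSO libraries. The log2 difference was 0.105 ± 0.035 (SE) on the log2(TPM + 1) scale, with a 95% interval of 0.027 to 0.183 and a limma adjusted p of 0.317.

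Psmd5, a chaperone of the base, stood at 69.7, 69.8 and 69.7 TPM with NAT and at 64.3, 66.8 and 62.2 TPM in DMSO. The NAT libraries were nearly equal and lay above all DMSO libraries, with a log2 difference of 0.113 ± 0.041 and a limma adjusted p of 0.345. The next member, Psme3, stood at 119, 127 and 121 TPM with NAT and at 118, 115 and 115 TPM in DMSO, with a log2 difference of 0.072 ± 0.039 and an adjusted p of 0.481. Its lowest NAT library lay just above its highest DMSO library, and with quantile normalization the difference was 0.043.

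The members of lowest p on the other side were Psma3, Psma7 and Psmd8. Psma3, an alpha ring gene, stood at 129, 121 and 123 TPM with NAT and at 137, 130 and 131 TPM in DMSO, a log2 difference of -0.09 ± 0.036 with a limma adjusted p of 0.390. Psma7, of the same ring, stood at 298, 298 and 289 TPM with NAT and at 309, 323 and 303 TPM in DMSO, a log2 difference of -0.079 ± 0.034 with an adjusted p of 0.406. Psmd8, the most abundant lid gene, stood at 244, 242 and 229 TPM with NAT and at 258, 264 and 248 TPM in DMSO, a log2 difference of -0.105 ± 0.047 with an adjusted p of 0.426. The groups did not overlap in any of these 3 genes, with NAT lower, and none passed the test.

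By place in the complex, the differences between NAT and DMSO were positive for 1 of 7 alpha ring genes, 1 of 7 beta ring genes and 0 of 3 immunoproteasome genes. They were positive for 5 of 9 base genes, 4 of 8 lid genes, 3 of 3 chaperones and 4 of 4 activators. The group medians ranged from -0.128 for the immunoproteasome to 0.105 for the chaperones, with -0.034 for the alpha ring, -0.019 for the beta ring, 0.007 for the base, -0.002 for the lid and 0.059 for the activators. The immunoproteasome median is the value of Psmb9, which was -0.0319 without NAT replicate 2 and -0.0535 without DMSO replicate 3. With median-of-ratios size factors the positive counts became 0 of 7 for each ring and 0 of 9 for the base. They became 1 of 8 for the lid, 2 of 3 for the chaperones and 3 of 4 for the activators. The sums of the 7 alpha ring genes were 1602, 1563 and 1563 TPM with NAT and 1627, 1641 and 1592 TPM in DMSO, which overlapped.

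**Figure D3:**
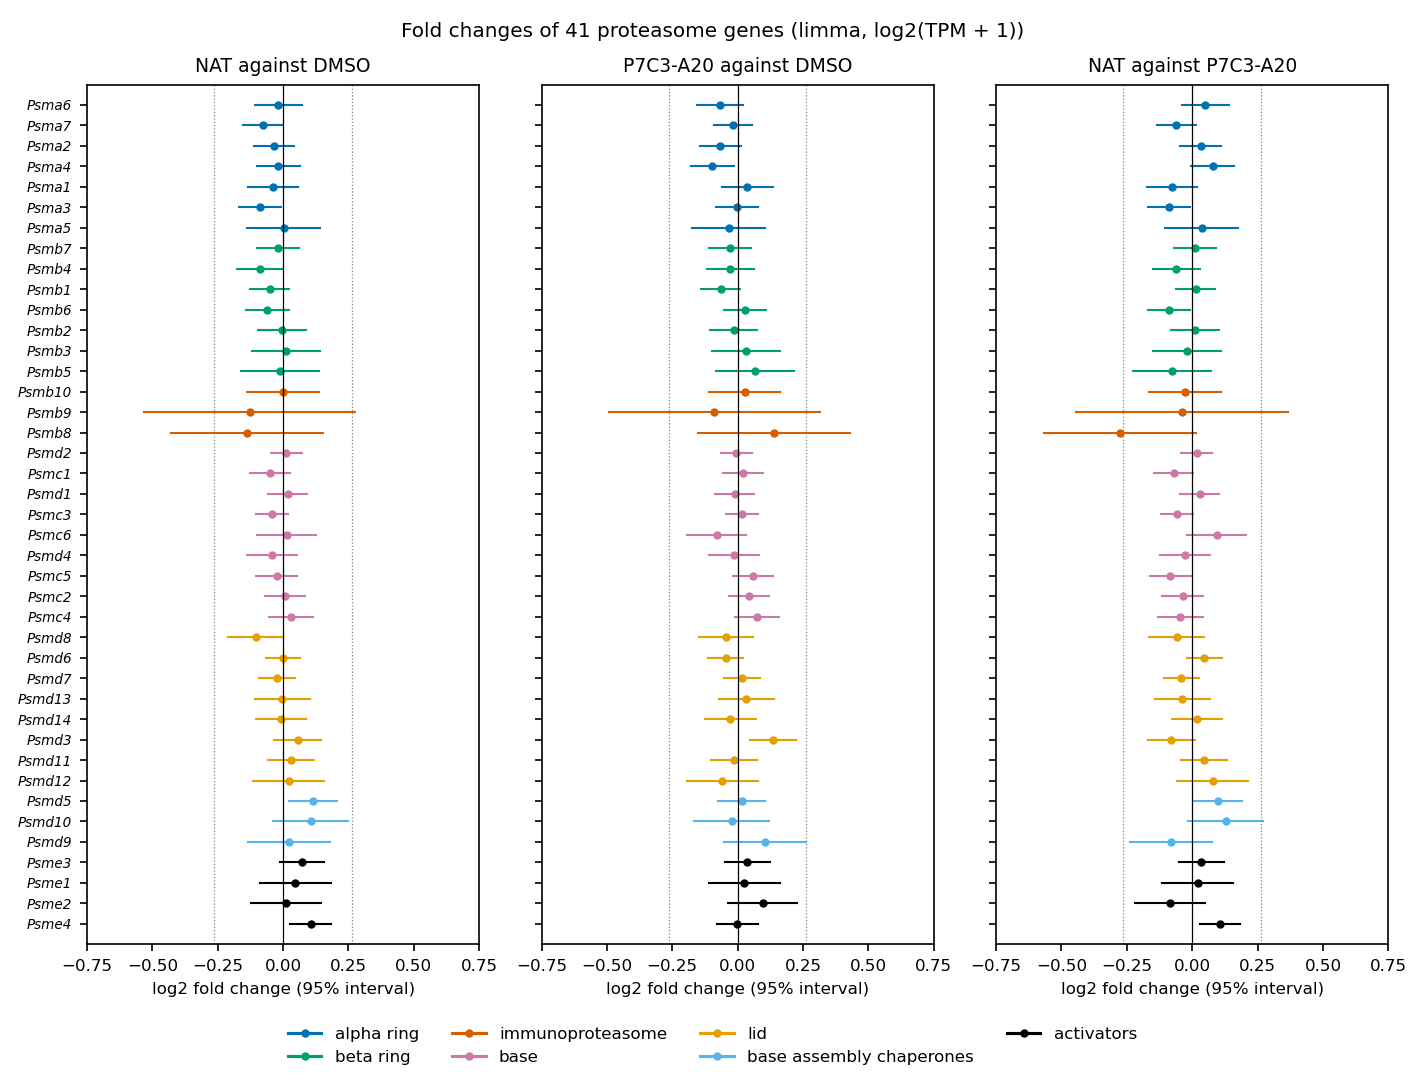
Log2 fold change of each of the 41 tested proteasome genes in the 3 comparisons, on the log2(TPM + 1) scale, with 95% intervals from limma. Dotted lines mark a fold of 1.2 in either direction. The intervals of Psmb8 and Psmb9 cross a dotted line in every panel and that of Psmd10 in the right panel, while those of the other 38 genes stay between the lines.

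The second comparison asked the same of P7C3-A20, against the same 3 DMSO libraries, so it is not independent of the first. No member was called by limma at an adjusted p below 0.05, where 0.0217% of all genes were called, nor by voom, which called 1.89% of all genes. At an unadjusted p below 0.05 there were 2 members, or 4.88% against 15.9% of all genes. Of these, 1 was higher with P7C3-A20, where 10.7% of all genes were, and 1 was lower, where 5.12% were. The libraries did not overlap for 3 members, or 7.32% against 20.6%, with 2 higher (13.1% of all genes) and 1 lower (7.49% of all genes). The median member difference was -0.0025, against 0.015 for all genes, with 19 members (46.3%) positive and 22 negative, where 55.2% of all genes were positive. Intervals lay within 1.2-fold for 39 of 41 members, again without Psmb8 and Psmb9, against 57.3% of all genes.

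Psmd3, a scaffold of the lid, had the lowest p of any member here. It stood at 159, 164 and 167 TPM with P7C3-A20 and at 148, 151 and 146 TPM in DMSO. The groups did not overlap, and the log2 difference was 0.135 ± 0.040, with a 95% interval of 0.046 to 0.223 and a limma adjusted p of 0.179. With each library's trend with GC content removed, the difference was 0.062. Psmd3 is among the most GC-rich members, at 55.4% GC.

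Psma4, an alpha ring gene, was the other member at an unadjusted p below 0.05. It stood at 214, 203 and 205 TPM with P7C3-A20 and at 216, 233 and 217 TPM in DMSO, a log2 difference of -0.096 ± 0.038 with a limma adjusted p of 0.256. All P7C3-A20 libraries lay below all DMSO libraries. The ATPase genes Psmc4 and Psmc5 followed on the higher side, with log2 differences of 0.075 ± 0.038 and 0.059 ± 0.036 and adjusted p-values of 0.362 and 0.442. On the lower side Psmb1 and Psma2 had log2 differences of -0.065 ± 0.034 and -0.066 ± 0.035, with adjusted p-values of 0.379 and 0.383. With the GC trend removed the difference was 0.0345 for Psmc4, 0.022 for Psmc5, -0.0033 for Psma2, -0.0686 for Psma4 and -0.0812 for Psmb1.

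Groups within the complex were close to 0. The differences between P7C3-A20 and DMSO were positive for 1 of 7 alpha ring, 3 of 7 beta ring, 2 of 3 immunoproteasome and 5 of 9 base genes. They were positive for 3 of 8 lid genes, 2 of 3 chaperones and 3 of 4 activators. The medians ran from -0.034 in the alpha ring to 0.031 in the activators. With the GC trend removed, the median of the immunoproteasome genes went from 0.026 to -0.056 and that of the base from 0.016 to -0.005. With quantile normalization that of the chaperones went from 0.015 to -0.004.

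The third comparison set the 2 compounds against each other at the same dose of 3 µM, the only pair of compounds in the study. Their structures cannot be compared here because NAT is a code name. No member was called by limma at an adjusted p below 0.05, where 0% of all genes were called, nor by voom, which called 2.46% of all genes. At an unadjusted p below 0.05 there were 5 members, or 12.2% against 15.8% of all genes. Of these, 2 were higher with NAT, where 9.92% of all genes were, and 3 were lower, where 5.89% were. The libraries did not overlap for 10 members, or 24.4% against 21.7%, with 4 higher (13.3% of all genes) and 6 lower (8.35% of all genes). Intervals lay within 1.2-fold for 38 of 41 members, against 56.9% of all genes, with the chaperone gene Psmd10 as the third exception. The median member difference was -0.027 against 0.011 for all genes. Of the members 19 (46.3%) were positive and 22 negative, where 54.0% of all genes were positive.

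Psme4, given above for NAT and DMSO, stood at 72.01, 71.3 and 71.0 TPM with P7C3-A20. This was below all 3 NAT libraries, with a log2 difference of 0.106 ± 0.035, a 95% interval of 0.028 to 0.184 and a limma adjusted p of 0.220. With the GC trend removed it was 0.0355. Psmd5 stood at 68.0, 64.4 and 63.0 TPM with P7C3-A20, also below all NAT libraries, with a log2 difference of 0.098 ± 0.041 and an adjusted p of 0.288. With the GC trend removed it was 0.040.

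Psma3 stood at 135, 133 and 129 TPM with P7C3-A20, above all 3 NAT libraries, and the log2 difference between NAT and P7C3-A20 was -0.088 ± 0.036 with a limma adjusted p of 0.285. With the GC trend removed it was -0.176. Psmb6, the beta1 gene, had a difference of -0.088 ± 0.037 with an adjusted p of 0.285, and Psmc5 one of -0.083 ± 0.036 with an adjusted p of 0.293. Psmb6 stood at 270, 277 and 284 TPM with NAT and at 283, 294 and 306 TPM with P7C3-A20. The groups overlapped by the highest NAT and the lowest P7C3-A20 library. Psma4 was positive, at 0.079 ± 0.038 with an adjusted p of 0.337, and at 0.019 with the GC trend removed.

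By place in the complex, the differences between NAT and P7C3-A20 were positive for 4 of 7 alpha ring, 3 of 7 beta ring, 0 of 3 immunoproteasome and 3 of 9 base genes. They were positive for 4 of 8 lid genes, 2 of 3 chaperones and 3 of 4 activators. The medians ran from -0.039 for the immunoproteasome to 0.098 for the chaperones. With median-of-ratios size factors 0 of 7 beta ring genes were positive, and with the GC trend removed 1 of 3 immunoproteasome genes was.

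For the immunoproteasome genes the intervals were wide, so the data bound their differences less tightly than those of the other members. Between NAT and DMSO the log2 difference of Psmb8 had an interval of -0.429 to 0.154, that of Psmb9 one of -0.532 to 0.276 and that of Psmb10 one of -0.138 to 0.136. Between P7C3-A20 and DMSO these intervals were -0.153 to 0.430, -0.493 to 0.315 and -0.111 to 0.163. Between NAT and P7C3-A20 they were -0.567 to 0.016, -0.443 to 0.365 and -0.164 to 0.109. All of them hold 0. Psmb8 and Psmb9 also had the fewest reads of the tested members, and the part of depth in the width of their intervals was not tested.

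GC content moved with the member values in the comparisons that involve P7C3-A20. Across all 13700 tested genes with a GC content, the slope of log2 level on GC content, taken against the mean of the 9 libraries, was -0.052 to -0.007 per 10 GC points in the DMSO libraries, -0.062 to 0.007 with NAT and 0.016, 0.037 and 0.114 with P7C3-A20. P7C3-A20 replicate 3 had the steepest slope, among the members as well, at 0.104. Across the 41 members, which range from 37.0% GC in Psmc6 to 57.4% in Psma7, Spearman's rho between GC content and the P7C3-A20 difference was 0.403, and it was 0.479 across all genes. For NAT against P7C3-A20 these values were -0.537 and -0.470, and for NAT against DMSO -0.217 and 0.006. The points share their libraries, so these are descriptions.

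Split at their median GC content, the 20 members with more GC had a median P7C3-A20 difference of 0.027, with 13 positive, and the other 21 members one of -0.023, with 6 positive. For NAT against P7C3-A20 the medians were -0.060, with 4 of 20 positive, and 0.032, with 15 of 21 positive. For NAT against DMSO they were -0.009 and 0.000. Removing the trend, with values beside some genes above, also brought the libraries to a common mean. The part of GC content alone in the differences was therefore not measured. Between NAT and DMSO the trend's removal gave 0.0734 for Psme4, 0.0818 for Psmd5 and 0.0435 for Psme3. It gave -0.119 for Psma3, -0.106 for Psma7 and -0.132 for Psmd8. Between the compounds it gave -0.081 for Psmb6 and -0.0735 for Psmc5.

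**Figure D4:**
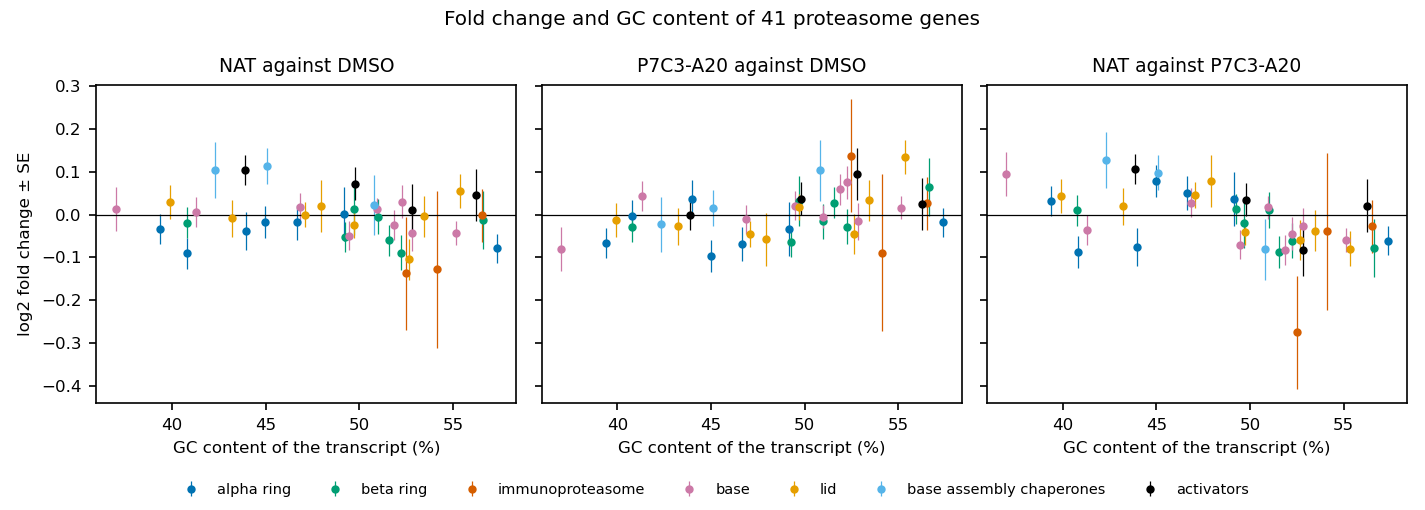
Log2 fold change (± SE, on the log2(TPM + 1) scale) of each of the 41 tested proteasome genes against the GC content of its transcript (%), in the 3 comparisons. In the middle panel members with more GC lie higher (rho 0.403), in the right panel they lie lower (rho -0.537), and in the left panel the relation is weaker (rho -0.217).

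A list of 39 further genes of the pathway, chosen along with the members, covered assembly factors, regulators, shuttles, ubiquitin genes and ligases, and all 39 were tested. None was called by limma in any comparison, while 5, 9 and 7 were at an unadjusted p below 0.05 for NAT against DMSO, P7C3-A20 against DMSO and NAT against P7C3-A20. These were 12.8%, 23.1% and 17.9% of the list, against 11.7%, 15.9% and 15.8% of all genes. Their median log2 differences were 0.016, 0.010 and -0.0073. The genes of lowest p between NAT and DMSO were Ubqln1, a shuttle that brings ubiquitinated proteins to the proteasome, and Shfm1, a small lid subunit whose symbol lies outside the naming rule. Ubqln1 stood at 158 ± 5.03 TPM with NAT and 145 ± 0.688 TPM in DMSO, a log2 difference of 0.121 ± 0.032 with a limma adjusted p of 0.249. Shfm1 stood at 439 ± 14.6 and 483 ± 4.15 TPM, a log2 difference of -0.140 ± 0.040 with an adjusted p of 0.264.

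With P7C3-A20 the list's genes of lowest p were Ube3a, a ubiquitin ligase, at 43.9 ± 2.85 TPM against 51.2 ± 1.23 TPM in DMSO, and Bag6, a chaperone for misfolded proteins, at 219 ± 8.98 against 196 ± 4.39 TPM. Their log2 differences were -0.218 ± 0.053 and 0.160 ± 0.042, with limma adjusted p-values of 0.155 and 0.158. Between the compounds Ube3a and the ligase gene Ube3c were lowest in p, with log2 differences of 0.202 ± 0.053 and 0.132 ± 0.042 for NAT against P7C3-A20 and adjusted p-values of 0.187 and 0.213. The assembly factor gene Pomp stood at 353 ± 19.8 TPM in DMSO. The regulator genes Nfe2l1 and Nfe2l2 stood there at 130 ± 2.62 and 132 ± 0.889 TPM. For Nfe2l1 the lowest library of either compound, at 135 TPM, lay above the highest DMSO library, at 133 TPM. Its log2 difference from DMSO was 0.119 ± 0.034 (NAT) and 0.094 ± 0.034 (P7C3-A20). The limma adjusted p-values were 0.269 and 0.236. For Nfe2l2 the differences were 0.082 ± 0.053 and -0.013 ± 0.053, with adjusted p-values of 0.567 and 0.930.

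The level of the immunoproteasome genes was read beside the genes of interferon response and antigen presentation. Of 18 such genes 16 were tested, and none was called in any comparison by limma, with 1, 2 and 1 at an unadjusted p below 0.05. These were 6.25%, 12.5% and 6.25% of the list, against 11.7%, 15.9% and 15.8% of all genes. Ifng and Ifnb1, which encode interferons gamma and beta, were listed at 0 in all 9 libraries. In DMSO the transcription factor gene Irf1 stood at 7.43 ± 0.184 TPM and the peptide transporter genes Tap1 and Tap2 at 14.2 ± 1.35 and 18.1 ± 1.99 TPM. B2m, the light chain of class I molecules, stood at 329 ± 6.75 TPM.

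The labelled cell type was checked against its markers, and the cultures expressed genes of several neural types. Of 8 genes of neural progenitors all were tested, among them Sox2 at 607 ± 33.6 TPM and Nes at 209 ± 12.6 TPM in DMSO. Genes of astrocytes were abundant, with Slc1a3 at 2128 ± 31.6, Aldh1l1 at 1553 ± 25.4 and Gfap at 821 ± 76.4 TPM, as was Olig1 of the oligodendrocyte lineage at 2158 ± 50.6 TPM. None of the progenitor, astrocyte, oligodendrocyte lineage or neuron genes was called by limma in any comparison.

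The 5 astrocyte genes summed to 4715 to 4909 TPM in DMSO, 5106 to 5235 TPM with NAT and 4510 to 5059 TPM with P7C3-A20. All 5 were positive between NAT and DMSO, where 63.5% of all genes were positive. At an unadjusted limma p below 0.05 there were 2 (40.0%), against 11.7% of all genes. Gfap had the largest of these 5, with a log2 difference of 0.237 ± 0.072 and a limma adjusted p of 0.285. The 8 progenitor genes summed to 17229 to 17646 TPM in DMSO, 16436 to 16799 TPM with NAT and 15929 to 16439 TPM with P7C3-A20, and 2 of 8 were positive with NAT. Most of each progenitor sum came from Fabp7 alone, whose group means were 12202, 11411 and 10932 TPM in that order. The sums therefore mainly follow this gene and do not describe all 8. Its log2 difference from DMSO was -0.097 ± 0.041 for NAT and -0.159 ± 0.041 for P7C3-A20. Between P7C3-A20 and DMSO 3 of the 8 genes were positive. Hes5, a Notch target of progenitors, had a log2 difference of -0.341 ± 0.073 between NAT and DMSO with a limma adjusted p of 0.210.

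The 6 genes of the oligodendrocyte lineage summed to 3185 to 3319 TPM in DMSO, 3026 to 3212 TPM with NAT and 3158 to 3702 TPM with P7C3-A20. Between NAT and DMSO 1 of 6 was positive, where 63.5% of all genes were. At an unadjusted limma p below 0.05 there was 1 (16.7%), against 11.7% of all genes. In this comparison Sox10 stood at -0.240 ± 0.059 with a limma adjusted p of 0.225. Between P7C3-A20 and DMSO 5 of 6 were positive (55.2% of all genes). Of the 6, 2 (33.3%) were at an unadjusted limma p below 0.05, against 15.9% of all genes. Between NAT and P7C3-A20 0 of 6 were positive (54.0% of all genes), and 4 (66.7%) were below that p, against 15.8%. Sox10 stood there at -0.317 ± 0.059 with a limma adjusted p of 0.168. The 5 neuron genes summed to 711 to 741 TPM, 696 to 741 TPM and 673 to 731 TPM in the same order of groups, with 0 of 5 positive between NAT and DMSO. The part of these cell types in the proteasome values was not tested.

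Of 11 genes of microglia and macrophages, cells that carry the immunoproteasome, 4 had a value of 0 throughout, Ctss, Trem2, C1qc and Cx3cr1. The 11 summed to 7.64 to 9.41 TPM in DMSO, 8.33 to 10.4 TPM with NAT and 9.25 to 10.2 TPM with P7C3-A20, most of it from Cd68 at 7.29 TPM in DMSO. The 4 genes of T and B cells summed to 0 to 1.23 TPM. Recovered reads per library ranged from 12028821 to 14109316 in DMSO and NAT and from 15885313 to 17217584 with P7C3-A20.

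Some members share their place in the genome or their sequence with other genes. In the GENCODE annotation the exons of 11 members overlap those of another gene, 9 of them on the opposite strand, among them Psmb9 with Tap1, Psmb7 with Nek6 and Psmd3 with Gm12356. The library kit is not stated to mark the strand, so reads there cannot be told apart. Proteasome genes also have processed pseudogenes, and how the authors counted reads that match more than 1 place is not given in the sources used here.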

How the data were processed

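Mouse neural stem cells gave 9 RNA libraries, made with the TruSeq RNA kit of Illumina per the labels. The deposited table gives TPM, computed by the authors, for 23420 symbols, of which 27 had been turned into dates. Bowtie 0.12.2 and the builds mm8 and mm9 appear, without a role, per the submitters' processing notes. Which counter and annotation were used is not given in the sources used here.

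The members and the gene lists were chosen with earlier results of these data known. Groups were compared with limma-trend (limma 3.58.1, R 4.3.3) on log2(TPM + 1) over 13839 genes with at least 1 TPM in at least 3 libraries. A single fit of the 9 libraries left 6 residual degrees of freedom. Two-sided p-values received Benjamini-Hochberg adjustment over all genes, and calls were made below 0.05. Fold changes on this scale understate the change of low genes. The fits were tested on simulated data.

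Because TPM rise in steps of 1 read, whole reads were recovered for 19302 genes (100.00% of those with a value, within 0.001 reads), which gave 12967906, 12028821 and 14109316 reads in DMSO, 13152657, 13803959 and 12994081 with NAT and 16186130, 17217584 and 15885313 with P7C3-A20. They served for depth and for voom (limma), in which genes needed 10 reads. GC content came from GENCODE transcripts (GRCm38), and promoters from the RefSeq table. File coordinates are not used, since the build is not clear.

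The genes named were the catalytic and immunoproteasome genes, the activators, the tissue forms, the highest and lowest gene of each place in the complex, and in each comparison the 3 members of lowest p in each direction and the 2 pathway genes of lowest p. Psmd14, Psmd10, the other pathway genes, and the interferon and marker genes were named for their role or value, after their values were seen. Alternatives were a pseudocount of 0.1, no filter, a minimum of 5 TPM, a replicate block, quantile normalization, median-of-ratios size factors, robust empirical Bayes, the 6 compared libraries alone, GC trend removal by a spline with 5 degrees of freedom, voom, each library left out and, chosen after seeing the data, the block with GC removal. Other steps used Python 3.11.15, numpy 2.4.6, pandas 2.3.3, scipy 1.17.1 and matplotlib 3.10.9.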

Additional observations from a re-analysis of the deposited data

How the results depend on the processing

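No member was called in any comparison under any of 20 other settings, and the lowest adjusted p of a member in any of them was 0.131 (limma). Psmb8 and Psmb9 had the fewest reads of the tested members, and the part of depth in their wide intervals was not tested. The quasi-likelihood test planned for recovered reads was not run, since the deposited values are TPM. The replicate numbers share no batch in the labels, and deviations of same-numbered libraries correlated between -0.0622 and 0.0673, so the numbers were not taken to pair the libraries. With the replicate block 0 members were called and the medians were -0.005, -0.003 and -0.027, as without it, while 3, 7 and 1 of all genes were called, against 4, 3 and 0.

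The median member difference between NAT and DMSO, -0.0046, was -0.030 with quantile normalization, -0.036 with median-of-ratios size factors, -0.032 with the GC trend removed (also with the block) and -0.035 with voom. In the same settings the median of all genes went from 0.030 to 0.002, 0.001, 0.002 and 0.003. That between P7C3-A20 and DMSO was -0.019 with size factors and -0.017 with voom, and that between the compounds -0.043 with quantile normalization and -0.041 with size factors. With each library left out in turn they ranged from -0.028 to 0.002, from -0.009 to 0.010 and from -0.037 to 0.003. The immunoproteasome share of the catalytic genes was 5.63%, 5.60% and 5.78% in recovered reads for DMSO, NAT and P7C3-A20, and 4.82% in DMSO with quantile normalization. Without 1 library it ranged from 4.73% to 4.78%, from 4.58% to 4.81% and from 4.79% to 4.92%. Recovered reads, unlike TPM, are not divided by gene length. What else moved these values was not tested.

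Of 880 single-gene values 45 had another sign, and none of the 880 was called. For NAT against DMSO, Psme2 became -0.0206 with quantile normalization, -0.0192 with size factors, -0.0158 with the GC trend removed and -0.0166 with voom. For P7C3-A20 against DMSO, removal of the GC trend gave -0.0565 for Psmb10, -0.0182 for Psmb5, -0.0067 for Psmb6, 0.0309 for Psmb7, -0.0548 for Psme1 and 0.0379 for Psme4, with or without the block. For NAT against P7C3-A20 it gave 0.0273 for Psmb10 and -0.0782 for Psmb7, which was -0.0042 with size factors and -0.0049 with voom. With each library left out, NAT against DMSO ranged from -0.0362 to 0.0342 for Psmb10, -0.0538 to 0.0254 for Psmb5, -0.191 to -0.0319 for Psmb9, which kept its sign, and -0.0488 to 0.0553 for Psme2. P7C3-A20 against DMSO ranged from -0.0173 to 0.0892 for Psmb10, -0.0073 to 0.132 for Psmb5, -0.00042 to 0.0556 for Psmb6, -0.061 to 0.00074 for Psmb7, -0.28 to 0.149 for Psmb9, -0.049 to 0.0868 for Psme1 and -0.0253 to 0.011 for Psme4. NAT against P7C3-A20 ranged from -0.0904 to 0.016 for Psmb10, -0.0193 to 0.0424 for Psmb7, -0.278 to 0.151 for Psmb9 and -0.0403 to 0.0956 for Psme1.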
